A study of Mus musculus with 24 samples.

Results

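Strong day 10 H3K9ac peaks that were listed in 1 of the cell lines and not in the other were described here. A strong peak had a value of at least 4 in column 7 of the authors' peak list, which holds the fold enrichment of the peak. It was called one-line when not a single base of it was covered by a peak of any strength in the day 10 list of the other line, on chromosomes 1 to 19. The rule gave 182 members of 10317 strong day 10 peaks: 137 parental-only peaks of 5287 in the parental list, and 45 knockout-only peaks of 5030 in the knockout list. The members were chosen by their fold and their absence from the other list, so these values are given as a description and carry no test. Each list comes from 1 ChIP sample, so no difference between the lists has a replicate check.

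The cells were female mouse embryonic stem cells of the line 16.7 Tsix +/TST, labelled WT and called parental here, and a G9a KO made in that line. All groups therefore carry the altered Tsix allele. The labels do not say how many knockout clones were used. Day 0 cells were undifferentiated, and day 10 cells had been differentiated by withdrawal of LIF, first in suspension and then on gelatinized plates. H3K9ac was mapped in 1 sample of each line on each day, and total RNA was sequenced in 3 libraries of each line on each day. In the labels the parental H3K9ac samples share 1 replicate number and the knockout samples share another. Line and replicate number therefore cannot be told apart for H3K9ac.

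Acetylation of lysine 9 of histone H3 is laid down by acetyltransferases and marks the starts of active genes and active distal elements. The same lysine can instead carry methyl groups, and G9a, the product of Ehmt2, places H3K9me2, a mark of silenced chromatin. A single lysine cannot carry both marks at once.

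The 4 peak lists held 37704 (knockout, day 0) to 63050 (parental, day 0) peaks, and the day 10 lists held 37310 peaks for the parental line and 51501 for the knockout. The lowest -log10 p-value in each list was 2.0, so absence from a list means that no peak passed that level and not that acetylation was zero. RNA libraries held 2081129 to 30527844 recovered reads. On day 0 the parental libraries held 2456799, 2081129 and 30527844, and the knockout libraries 2790870, 26683251 and 21087157. No day 10 library held more than 4220140. Read number thus differed between the days and was uneven between the lines on day 0. Its part in the changes from day 0 to day 10 was not tested. Ehmt2 RNA lay between 987 and 1375 scaled reads in parental and between 375 and 557 in knockout libraries on day 0. On day 10 the ranges overlapped, at 719 to 1359 and 500 to 758. The summed level of 7 markers of naive stem cells was 2650 to 5454 in parental and 8789 to 11063 in knockout day 10 libraries, and that of 7 fibroblast markers was 757 to 4379 and 2039 to 6839. On the same day 4 neural markers summed to 264 to 562 in parental and 706 to 1350 in knockout libraries, and 5 cardiac and smooth muscle markers to 813 to 1618 and 1563 to 5394. Endoderm markers summed to 61.8 to 327 in parental and 123 to 245 in knockout libraries. Endothelial and blood markers summed to 213 to 704 and 369 to 739. For trophoblast markers the sums were 770 to 1130 and 920 to 1176. Of all these lists only the naive and the neural one did not overlap between the lines, and the part of these markers in the results was not tested. Bulk RNA and ChIP cannot tell fewer cells of a type from less signal per cell. The third parental day 10 library carried 7691 scaled reads over 1452 olfactory and vomeronasal receptor genes, against 214 to 531 in the other 5 day 10 libraries.

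A minority of members lay at a gene start (within 1 kb), and the sequences just before 5 of these starts are shown as examples from both classes. Echdc3 encodes a mitochondrial protein of the enoyl-CoA hydratase family, and Nfrkb a subunit of the INO80 chromatin remodelling complex. The starts of both held a parental-only peak. Ttc21b encodes a protein of intraflagellar transport in cilia, Mturn the neural differentiation factor maturin, and Hspa1a the stress-inducible chaperone HSP70. A knockout-only peak lay at the starts of these 3. It covered the start of Ttc21b and lay 45 bp from that of Hspa1a. At Mturn it began 182 bp downstream of the start, so the bases before that start lie outside it. Each line gives the 200 bases before the start, 5′ to 3′ on the gene's strand, from RefSeq (GRCm38.p6), with each CpG dinucleotide in capitals. The stretches are chr2:6212995-6213194 (minus strand) for Echdc3, chr9:31385992-31386191 (plus) for Nfrkb, chr2:66256618-66256817 (minus) for Ttc21b, chr6:54681424-54681623 (plus) for Mturn and chr17:34972157-34972356 (minus) for Hspa1a.
Echdc3: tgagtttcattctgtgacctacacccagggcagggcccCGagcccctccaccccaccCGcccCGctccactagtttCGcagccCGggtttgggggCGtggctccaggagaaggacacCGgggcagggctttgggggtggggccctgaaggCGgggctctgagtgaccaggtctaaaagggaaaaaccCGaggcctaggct
Nfrkb: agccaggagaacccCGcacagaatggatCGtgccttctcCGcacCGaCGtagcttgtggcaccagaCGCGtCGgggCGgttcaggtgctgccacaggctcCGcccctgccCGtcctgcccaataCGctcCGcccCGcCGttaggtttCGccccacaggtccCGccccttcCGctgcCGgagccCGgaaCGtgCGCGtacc
Ttc21b: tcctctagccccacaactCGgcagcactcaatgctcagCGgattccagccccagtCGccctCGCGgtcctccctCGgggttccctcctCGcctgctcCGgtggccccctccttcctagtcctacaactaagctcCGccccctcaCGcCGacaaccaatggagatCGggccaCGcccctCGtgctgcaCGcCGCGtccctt
Mturn: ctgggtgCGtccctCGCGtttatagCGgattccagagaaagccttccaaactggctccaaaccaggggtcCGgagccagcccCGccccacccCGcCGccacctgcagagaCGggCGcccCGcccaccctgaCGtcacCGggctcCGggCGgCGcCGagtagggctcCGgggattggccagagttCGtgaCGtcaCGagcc
Hspa1a: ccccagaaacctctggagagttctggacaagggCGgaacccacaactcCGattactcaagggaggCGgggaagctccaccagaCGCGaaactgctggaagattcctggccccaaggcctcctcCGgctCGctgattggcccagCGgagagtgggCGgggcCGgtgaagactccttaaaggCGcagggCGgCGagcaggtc

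The printed stretches hold 9 CpG in Echdc3, 23 in Nfrkb, 17 in Ttc21b, 21 in Mturn and 13 in Hspa1a. The 20 gene-start members named 22 genes, of which 18 were found in the RefSeq table of promoters (250 bases before to 50 after the start). Nav3, Lhpp, Trpm4 and Mir7668 were not matched. The 11 parental-only promoters had a median of 13 CpG in 300 bases and a median GC content of 60%, and the 7 knockout-only promoters had 21 CpG and 66.3%. Over all 27025 promoters in the table the medians were 7 CpG and 52.7%. The promoter of Zfp27, a zinc finger gene with a parental-only peak, held 1 CpG, and that of Fermt2, the integrin activator kindlin-2 with a knockout-only peak, held 37.

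Motifs were searched on both strands of the same 300-base windows, and none of the motifs holds another. GGGCGGG, the box bound by Sp family factors, was in 7 of 11 parental-only and 5 of 7 knockout-only promoters, and in 25.8% of all promoters. CCAAT was in 4 and 5 of them, and in 37.9% of all promoters. CCACCC, read by Klf family factors, was in 5 and 4, and in 30.9% of all promoters. GAANNTTC, the core of a heat shock element, was in 1 knockout-only promoter, that of Hspa1a, and in 7.95% of all promoters. The octamer ATGCAAAT and the GATA motif AGATAAG were in none of the 18 promoters, and in 1.75% and 3.07% of all promoters. GGAATG was in 2 promoters of each class (14.6% of all), CAGCTG in 4 parental-only promoters (16.1%), TTTATNG in 2 knockout-only promoters (11.3%) and TGANTCA in 1 parental-only promoter (7.93%). These matches are letters in a window and not bound sites. Promoters with a strong peak in both lines were not read. The CpG, GC and motif values are therefore not shown to be particular to one-line promoters. For a gene with several starts the first listed start was used, and a peak within 1 kb need not cover the window.

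One-line peaks made up 2.59% of the strong parental peaks (95% Wilson interval 2.2 to 3.06%) and 0.895% of the strong knockout peaks (0.669 to 1.19%). The intervals treat peaks as independent and cover counting only, not the spread between samples. The knockout list was the longer one, and with it cut to the length of the parental list by -log10 p the parental-only class held 150 peaks. The knockout-only count of 45 could not change, because the cut removed only knockout peaks with the lowest -log10 p. Parental-only folds ran from 4.009 to 15.03 with a median of 4.545, and knockout-only folds from 4.002 to 7.464 with a median of 4.582. Thus 24 parental-only and 7 knockout-only members reached a fold of 6, and 11 and 0 reached 8. Just inside the threshold, between 4 and 4.1, lay 19 parental-only and 5 knockout-only peaks. Just outside it, between 3.9 and 4, lay 26 and 17 peaks that were otherwise absent from the other list. The nearest peak of the other line was a median of 20114 bp away from parental-only and 26582 bp away from knockout-only members. It lay within 1 kb of 7 and 2 members.

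Most members were far from genes. Of the 137 parental-only peaks 13 lay at a gene start (within 1 kb), 24 elsewhere in a gene body and 100 between genes. Of the 45 knockout-only peaks 7 lay at a gene start, 12 in a gene body and 26 between genes. Strong peaks found in both lines were placed otherwise: 4503 of 5150 in the parental list and 4458 of 4985 in the knockout list lay at a gene start. The median distance to the nearest gene start was 72822 bp for parental-only and 79841 bp for knockout-only members. At more than 100 kb from any start lay 62 parental-only and 19 knockout-only members. All but 1 of the 50 parental-only peaks with a fold of at least 5 lay away from gene starts, the exception being the start of 4930447C04Rik at a fold of 5.64.

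**Figure D1:**
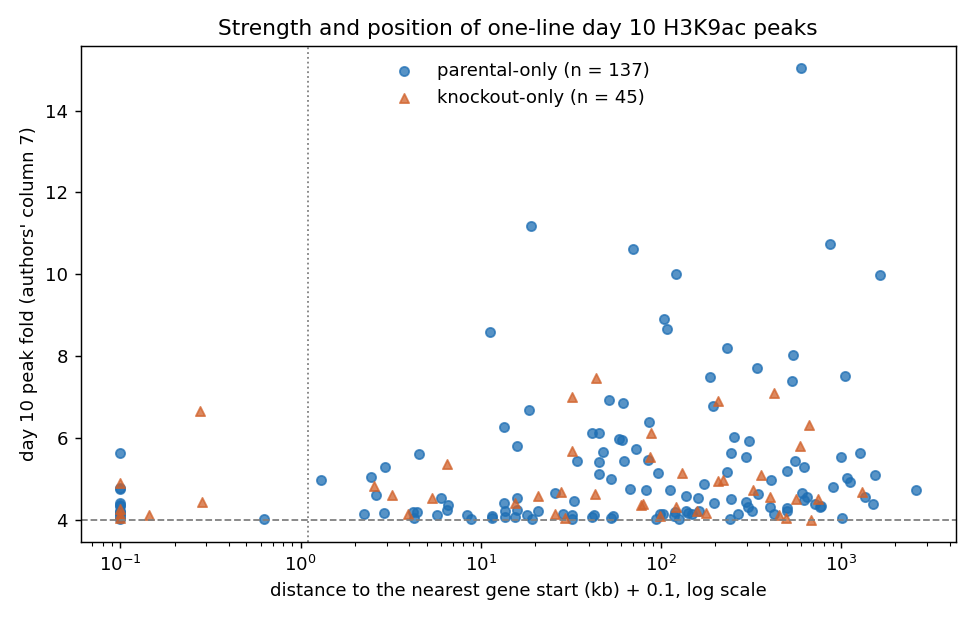
Day 10 fold of each one-line peak (vertical axis, the authors' column 7) against its distance to the nearest gene start in kb (horizontal axis, log scale, with 0.1 kb added). Circles are 137 parental-only and triangles 45 knockout-only peaks; the dotted line marks 1 kb and the dashed line the minimum fold of 4. The 11 peaks with a fold of 8 or more are parental-only, and all of them lie to the right of the dotted line.

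The strongest parental-only peak was chr5:85447122-85448015 (mm9), with a fold of 15.03. It lay 600715 bp from the start of Epha5, an ephrin receptor gene. The day 0 lists held a peak there with folds of 8.383 in the parental line and 14.59 in the knockout. The next was chr6:129244329-129245162, with a fold of 11.19, which lay 18942 bp from Cd69, the gene of an early lymphocyte activation antigen. Its day 0 folds were 14.27 and 16.56. The third, chr3:71905418-71906277 at 10.73, lay 864511 bp from Sis, the gene of the intestinal enzyme sucrase-isomaltase, with day 0 folds of 10.47 and 14.4. The peak chr1:44538585-44538938 at 10.63 lay 69578 bp from Gulp1, an engulfment adaptor gene, with day 0 folds of 6.216 and 4.889. The fifth, chr14:106174715-106175605 at 10.0, lay 120431 bp from Spry2, a feedback inhibitor of receptor tyrosine kinase signalling, with day 0 folds of 10.77 and 19.33. All 5 were thus listed in the knockout line before differentiation and not listed there on day 10.

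The strongest knockout-only peak was chr4:11971005-11971358, with a fold of 7.464. It lay in the gene body of Tmem67, which encodes a protein of the ciliary transition zone, and the day 0 folds there were 4.473 in the parental line and 6.632 in the knockout. The peak chr8:38893471-38893770 at 7.103 had a day 0 peak of fold 6.67 in the knockout list and none in the parental list. The peak chr14:125108148-125108425 at 6.997 lay 31799 bp from Fgf14, which encodes an intracellular FGF family protein of neurons. It had a day 0 peak in the knockout list (4.013) and none in the parental list. The peak chr12:26688538-26688942 at 6.893 was in both day 0 lists (4.293 and 5.075). The peak at Nav3, described with the gene starts, was the fifth at 6.666. The next distal peak, chr3:47166809-47167160 at 6.326, lay 663521 bp from the nearest start and was in neither day 0 list.

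The closest pair of a parental-only and a knockout-only peak was 219487 bp apart, on chromosome 14, and the knockout-only peak of that pair lay 99056 bp from Spry2. The classes are small, and the spacing of unrelated peaks of the same number was not worked out. Within the classes 1 pair of members lay less than 100 kb apart, chr4:115022918-115023270 (fold 6.93) and chr4:115051199-115052056 (4.01), beside the cytochrome P450 genes Cyp4a12a and Cyp4a12b. These genes are near-identical neighbours, and both peaks lie outside them. Whether the bases under the peaks are also near-identical, so that reads could be placed at either, was not read. Per chromosome the parental-only share of strong peaks ran from 0.879% (chromosome 11, 4 of 455) to 5.97% (chromosome 12, 12 of 201). The knockout-only share ran from 0 on 3 chromosomes to 2.42% on chromosome 1 (7 of 289).

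Peak widths differed in their distribution. Parental-only widths had 2 clusters, with 51 members of at most 450 bp and 43 between 750 and 950 bp, and a median of 662 bp. Knockout-only peaks were mostly narrow, with 29 of 45 of at most 450 bp, 2 between 750 and 950 bp and a median of 379 bp. The parental-only peaks of 750 to 950 bp were the stronger ones, with a median fold of 5.28 against 4.47 at no more than 450 bp. Of these 43, 35 lay between genes. Shared strong peaks between genes had median widths of 839 bp in the parental and 733.5 bp in the knockout list. Shared peaks at gene starts had median widths of 2235 and 2228 bp.

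**Figure D2:**
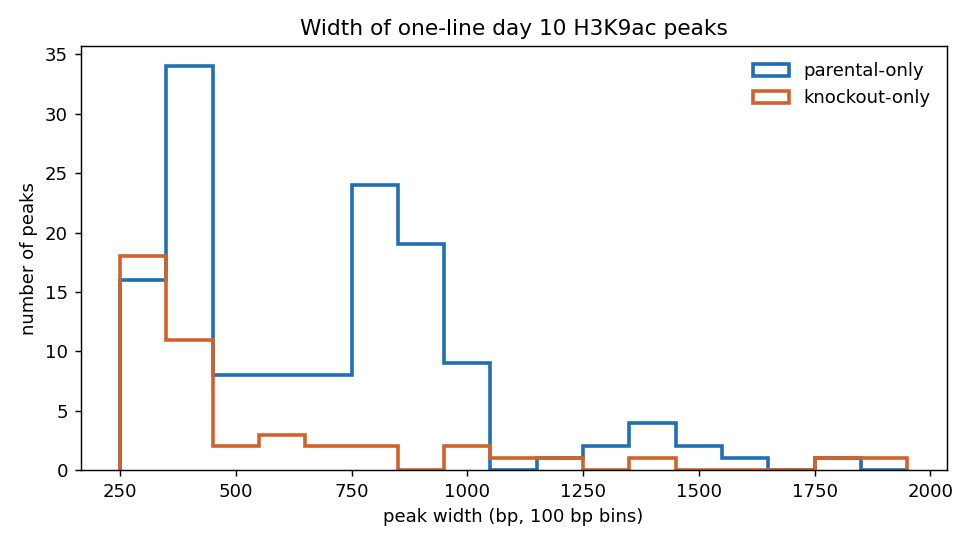
Number of one-line peaks (vertical axis) by width in bp (horizontal axis, bins of 100 bp), parental-only in blue and knockout-only in orange. The parental-only peaks have a second cluster between 750 and 950 bp (43 of 137), where the knockout-only class has 2 of 45.

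The day 0 lists, which the rule did not use, showed whether a peak was called at a member before differentiation. Of the parental-only peaks 95 of 137 overlapped a peak in both day 0 lists, 13 in the parental list alone, 14 in the knockout list alone and 15 in neither. So 109 of 137 sites that the knockout list lacked on day 10 were listed in the knockout on day 0, and 108 were listed in the parental line on day 0. Of the knockout-only peaks 16 of 45 were in both day 0 lists, 6 in the parental list alone, 7 in the knockout list alone and 16 in neither. Shared strong peaks were in both day 0 lists more often, at 4604 of 5150 in the parental list. With day 0 peaks counted only at a fold of at least 4 the order was the reverse, as 47 of 137 parental-only peaks (34.3%) and 643 of 5150 shared peaks (12.5%) were in both day 0 lists. For the knockout list these counts were 8 of 45 (17.8%) and 565 of 4985 (11.3%). All these counts mix places, and most shared but few one-line peaks lay at gene starts. Between genes 87% of parental-only peaks were in the parental and 85% in the knockout day 0 list, against 93.6% and 93.1% of shared peaks. At gene starts these shares were 38.5% and 46.2%, against 95.7% and 92.7%. Between genes 50% of knockout-only peaks were in each day 0 list, against 92.4% (parental) and 89.9% (knockout) of shared peaks. The knockout day 0 list is shorter than the parental one (37704 against 63050 peaks), and list length sets part of any overlap.

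**Figure D3:**
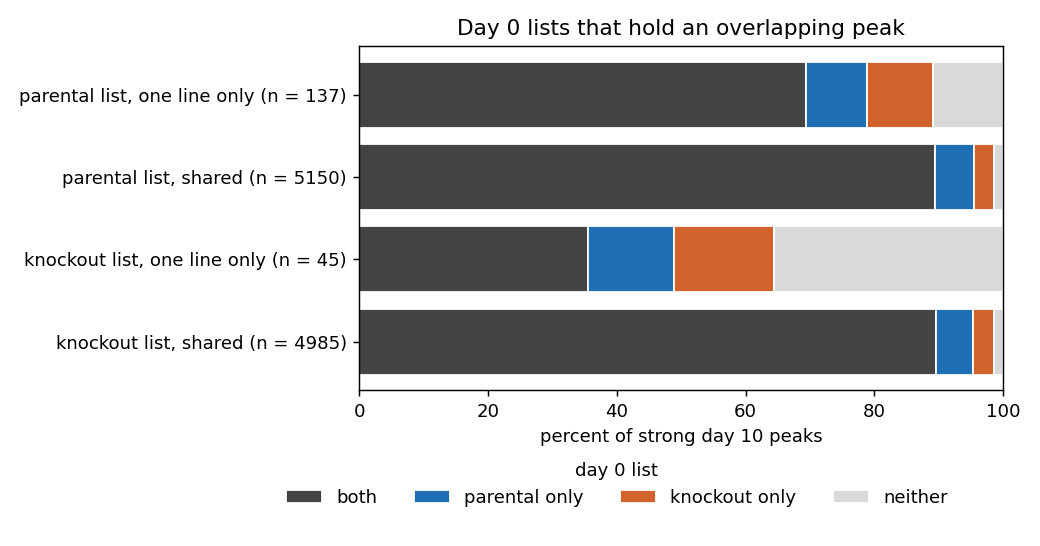
Percent of strong day 10 peaks (horizontal axis) that overlap a peak in both day 0 lists, the parental list alone, the knockout list alone or neither, for one-line and shared peaks of each day 10 list. The dark part is 95 of 137 for parental-only and 16 of 45 for knockout-only peaks.

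For parental-only peaks the presence on day 0 followed strength and position. All 24 parental-only peaks with a fold of at least 6 were in both day 0 lists, with median day 0 folds of 8.52 in the parental line and 9.56 in the knockout. Of those between 4 and 5, 50 of 87 were in both. Between genes 79 of 100 parental-only peaks were in both day 0 lists, and at gene starts 2 of 13. The day 0 folds at those starts were low, at 2.36 to 3.43 over both lists. Among knockout-only peaks 3 of 7 with a fold of at least 6 were in both day 0 lists, and 11 of 32 between 4 and 5. At gene starts 2 of 7 knockout-only peaks were in both, and 8 of 26 between genes, so no clear trend was seen in that class. Its highest day 0 fold was 6.68. Folds are the authors' values within each list, so folds of different lists stand side by side and show no measured change.

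**Figure D4:**
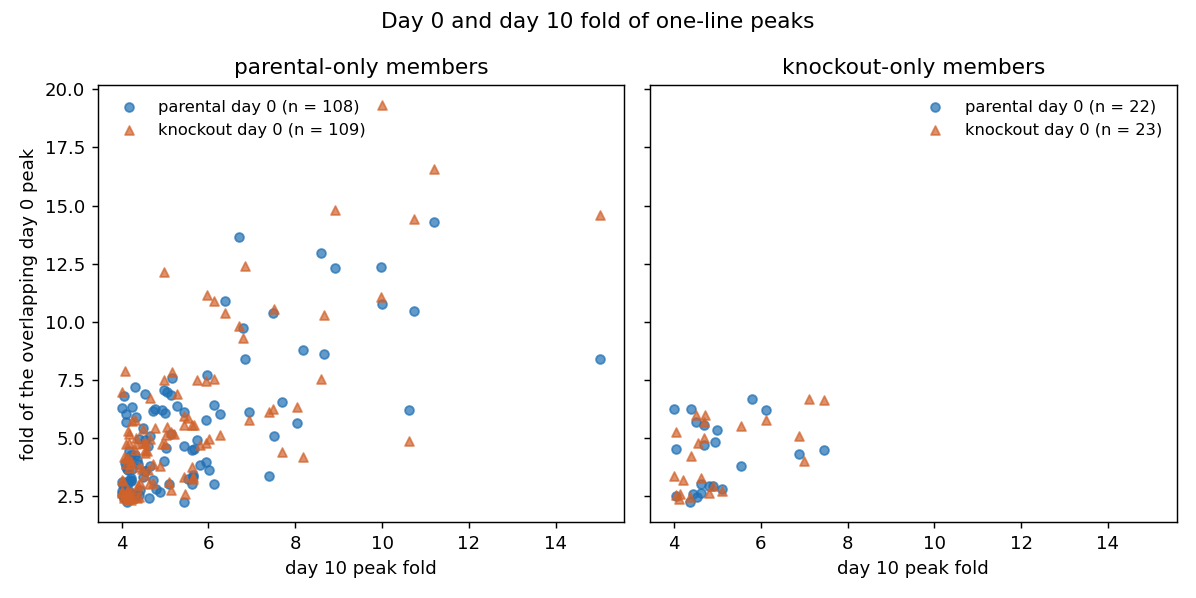
Fold of the overlapping day 0 peak (vertical axis) against the day 10 fold of the one-line peak (horizontal axis), for parental-only members (left) and knockout-only members (right). Circles are parental and triangles knockout day 0 peaks, and members without a day 0 peak are not drawn. The knockout day 0 folds of parental-only members reach 19.33, and no day 0 fold of a knockout-only member is above 6.68.

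At 13 gene starts the parental list held a strong peak that no knockout peak overlapped. The strongest with a named gene was Echdc3 (mm9 chr2:6132877-6134126, fold 4.787). Lhpp, a histidine phosphatase gene, had a fold of 4.747. Dnajc28, a J-domain protein gene, had 4.399, with a knockout peak 59 bp away. Trpm4, a calcium-activated cation channel gene, had 4.356. Zfp27, whose peak also covered the start of Mir7668 on the other strand, had 4.347 with a knockout peak 50 bp away. Nfrkb had 4.211, the lysosomal mannosidase gene Man2b1 4.178, the mitochondrial kinase-like gene Adck1 4.140, and the planar polarity gene Prickle2 4.107. Tmem41a, a membrane protein gene, had 4.043, the phosphatase gene Dusp23 4.015, and the adaptor gene Stap2 4.009. The Stap2 peak lay 525 bp from the start, with a knockout peak 852 bp away from it. Of these 13 peaks 2 were in both day 0 lists, 3 in the parental list alone, 4 in the knockout list alone and 4 in neither.

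At 7 starts the peak was knockout-only. Nav3, which encodes a microtubule-binding neuron navigator, had the highest fold (6.666, chr10:109437452-109438437, 177 bp from the start) and no day 0 peak. Fam73b, the mitochondrial fusion gene also called Miga2, had 4.890 and peaks in both day 0 lists. Mturn had 4.432, with a parental peak 509 bp away. Ttc21b had 4.261 and Hibch, an enzyme gene of valine breakdown, 4.132. A peak of 4.122 lay between the divergent starts of Hspa1a and Hspa1l, chaperone genes of the HSP70 family. Hspa1a and its near-identical neighbour Hspa1b can share reads, so its values are uncertain. Fermt2 had 4.054. Ttc21b, Hibch, Nav3 and the Hspa1a and Hspa1l pair were in neither day 0 list.

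None of the 344 autosomal genes in 18 lists (stem cell, germ layer, Hox, imprinted, germline, H3K9 methylation and other genes) had a one-line peak at its start or was the nearest gene to a one-line peak within 50 kb, in either class. Over all 22882 autosomal genes, 22 had a one-line peak at the start. A further 45 were nearest to a parental-only and 14 to a knockout-only peak within 50 kb. A count of 0 among 344 genes is near these shares, so the listed genes are not shown to differ from other genes. Strong peaks found in both lines lay at 52 (parental list) and 58 (knockout list) of their starts. A knockout-only peak (fold 5.538) lay inside Col5a2, a fibrillar collagen gene, 87259 bp from its nearest start.

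RNA was read at the genes whose starts held a member, to see whether RNA and peak differed in the same direction between the lines. Over all 20624 genes tested with limma on log2(scaled reads + 1), 0 (0%) passed an adjusted p of 0.05 between knockout and parental cells on day 10, although 2462 had an unadjusted p below 0.05. None of the 13 parental-only and 8 knockout-only genes tested passed. edgeR on recovered reads tested 11 and 6 of them and called 0. The median log2 difference, knockout minus parental, was -0.27 for the parental-only genes (5 above and 8 below 0) and -0.81 for the knockout-only genes (2 above and 6 below 0), beside -0.26 over all genes tested. Without the third parental library the medians were -0.01, -0.53 and -0.07. Genes with a peak that only the knockout listed thus did not have a higher median in the knockout.

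The parental-only genes included 3 with lower values in each knockout library than in any parental library, and 0 with higher values; over all genes 12.6% were lower without overlap and 5.54% higher. Stap2 was at 58.67, 72.06 and 83.35 scaled reads in the parental libraries and at 31.73, 30.12 and 24.27 in the knockout. The log2 difference was -1.28 (SE 0.55, limma adjusted p = 0.39). Echdc3 was at 86.46, 37.06 and 60.36 in the parental and 31.73, 24.64 and 24.27 in the knockout libraries, a difference of -1.09 (SE 0.52, limma adjusted p = 0.426). Prickle2 was at 670.1, 852.4 and 1595.2 against 571.2, 544.9 and 423.4, a difference of -0.93 (SE 0.45, limma adjusted p = 0.431). In these 3 genes all knockout libraries were low, and the highest Prickle2 value came from the library with reads at receptor genes. Trpm4 was at 401.4, 465.3 and 353.5 against 170.6, 375.1 and 183.4, so the second knockout library overlapped the parental range. Dusp23 was near the detection limit, at 3.09, 2.06 and 8.62 against 0, 2.74 and 0. Man2b1 had the highest difference in the class at 0.56 (SE 0.39, limma adjusted p = 0.589), with 781.2, 434.4 and 304.7 against 714.0, 807.7 and 574.4, which overlap.

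Among the knockout-only genes the start of Ttc21b held the peak in the line with less RNA. Ttc21b was at 163.7, 208.0 and 324.8 scaled reads in the parental and 126.9, 131.4 and 132.1 in the knockout libraries, a log2 difference of -0.77 (SE 0.35, limma adjusted p = 0.415). The groups did not overlap, and this was the 1 such gene of the 8, near the 12.6% over all genes. Hibch was at 67.93, 177.1 and 232.8 against 55.54, 84.88 and 86.29, with overlapping groups. Nav3 was at 40.14, 51.47 and 730.1 against 31.73, 60.24 and 26.97. Its parental mean rests on the third library, the one with reads at receptor genes, and the other 2 lie among the knockout values. Hspa1a was low throughout, at 27.79, 20.59 and 0 against 3.97, 16.43 and 2.7. Mturn was at 148.2, 152.4 and 152.3 in the parental libraries and spread from 35.06 to 190.4 in the knockout. Fermt2 was high in all, at 843.0 to 1183.9 and 956.0 to 1292.3, and its groups overlapped.

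**Figure D5:**
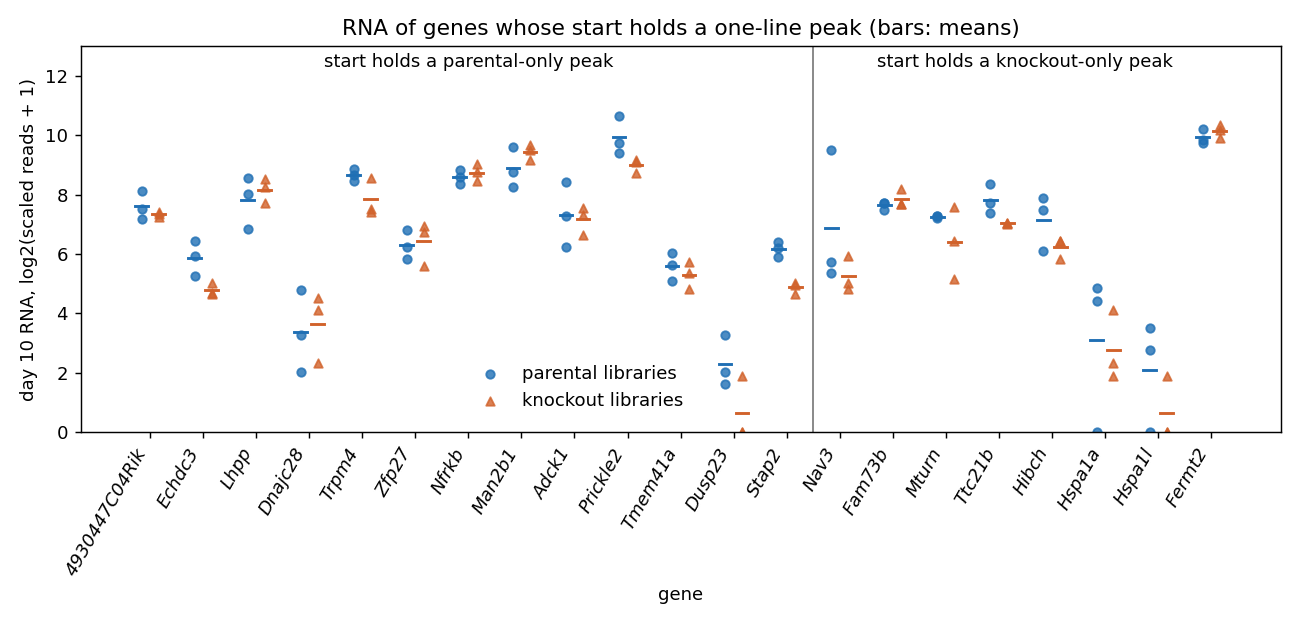
Day 10 RNA as log2(scaled reads + 1) (vertical axis) of the 13 tested genes with a parental-only peak at the start (left) and the 8 with a knockout-only peak (right). Circles are the 3 parental and triangles the 3 knockout libraries, and bars are means. The groups do not overlap for Echdc3, Prickle2, Stap2 and Ttc21b, all lower in the knockout.

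The same genes were read from day 0 to day 10 in each line. From day 0 to day 10 limma called 2.02% of all genes higher and 2.4% lower in parental cells, and 2.43% higher and 6.46% lower in knockout cells. Of the 13 parental-only genes 0 passed in parental cells and 1 passed in knockout cells. That gene, 4930447C04Rik, was named after its values were seen. It was at 298.9, 794.2 and 790.8 scaled reads in the knockout on day 0 and at 150.7, 161.5 and 169.9 on day 10, so it fell by 1.83 on the log2 scale (SE 0.47, limma adjusted p = 0.0328). In parental cells it was at 558.8, 204.6 and 636.4 and then at 145.1, 181.2 and 275.9, a difference of -1.10 that did not pass (limma adjusted p = 0.242). The knockout day 0 libraries with 794.2 and 790.8 held 26683251 and 21087157 recovered reads, and the library with 298.9 held 2790870. Whether read number played a part in the fall of 4930447C04Rik was not tested. Of the 8 knockout-only genes 0 passed in either line. With so few genes these counts lie near the shares over all genes, and a gene that did not pass is not shown to be stable. On day 0 itself 0 of the 13 and 0 of the 8 genes passed between the lines, as did 0 of all genes, where 788 had an unadjusted p below 0.05.

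Genes nearest to distal members were read with more distance between peak and gene. Within 50 kb of a parental-only member 42 genes were tested, with a median day 10 difference of -0.27, and 14 within 50 kb of a knockout-only member, with a median of -0.87. None passed between the lines. Without the third parental library the medians were -0.17 and -0.09. From day 0 to day 10, 3 of the 42 and 1 of the 14 were called lower in knockout cells, beside 6.46% over all genes, and 0 and 1 higher in parental cells, beside 2.02%. These counts are near the shares over all genes, and the 5 genes are named here after their values were seen. Jph1, which encodes a junctophilin of excitable cells, lay 20630 bp from a knockout-only peak (fold 4.582, in neither day 0 list). It was at 77.81, 91.86 and 50.1 scaled reads in parental cells on day 0 and at 382.9, 529.2 and 735.8 on day 10, a rise of 2.88 on the log2 scale (SE 0.42, limma adjusted p = 0.00134). In the knockout it went from 252.2, 95.74 and 99.72 to 242.0, 238.2 and 204.9, a difference of 0.76 that did not pass (limma adjusted p = 0.212). The difference between these 2 changes was -2.12 (SE 0.59, limma adjusted p = 0.547), so a difference between the lines was not shown. Near parental-only members Slc5a11, a sodium-coupled transporter gene, Lhx6, a LIM homeobox gene, and Prkaa1, the gene of the AMP-activated kinase subunit alpha-1, fell in the knockout from day 0 to day 10, with log2 differences of -2.14, -1.96 and -1.19 (limma adjusted p = 0.0373, 0.0386 and 0.0417). In parental cells their differences were -1.90, -1.34 and -0.61 and did not pass (limma adjusted p = 0.0828, 0.204 and 0.39). The differences between the changes were -0.24, -0.62 and -0.58 (limma adjusted p = 0.948, 0.834 and 0.723), so a difference between the lines was not shown for these genes. Prkaa1 was at 420.3, 811.2 and 810.5 in the knockout on day 0, with the higher values in the libraries with most reads. Slc5a11 (189.9, 120.8 and 126.1) and Lhx6 (133.9, 118.5 and 112.5) were highest in the knockout day 0 library with fewest reads. Fgf14, near a knockout-only peak, fell in the knockout by 3.81 (limma adjusted p = 0.034), from 1304.5, 238.4 and 224.2 to 19.83, 32.86 and 35.06. The highest of its knockout day 0 values came from the first library, which held 6937 scaled reads at receptor genes against 949 and 978 in the other 2. In parental cells its difference was -0.26 (limma adjusted p = 0.939). Its parental day 10 values were 67.93, 98.83 and 1721.7, the last from the third library, with reads at receptor genes. The difference between the changes of Fgf14 was -3.55 (limma adjusted p = 0.555), so a difference between the lines was not shown. Jph1 kept its call in all 20 alternatives, among them each of 12 libraries left out. The calls of Slc5a11, Lhx6, Prkaa1, Fgf14 and 4930447C04Rik were lost without the second or the third knockout day 0 library and without any 1 of the 3 knockout day 10 libraries, where adjusted p rose to at most 0.146. With replicate number as a block Slc5a11 and Lhx6 also lost theirs.

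Beyond 50 kb the median day 10 difference of the 71 tested genes nearest to a parental-only member was -0.97, and 61 of them lay below 0, beside -0.26 and 13233 of 20624 over all genes. Without the third parental library it was -0.41, with 44 below 0, beside -0.07 and 11361 of all genes. For the 21 genes nearest to a knockout-only member the medians were -0.40 and -0.15. None of these genes passed between the lines. On day 0 the difference of the 71 genes lay the other way, with a median of 0.56 and 61 above 0. Over all genes the day 0 median was 0.17, with 12880 of 20624 above 0. For the 21 genes the day 0 median was 0.64, with 19 above 0. Genes nearest to shared peaks beyond 50 kb were not read, so these medians are not shown to be particular to one-line peaks. From day 0 to day 10, 6 of the 71 were called higher and 0 lower in parental cells, and 2 higher and 8 lower in knockout cells. Of the 21 genes 1 was called higher in parental and 3 lower in knockout cells. Over all genes the shares were 2.02% higher in parental cells, and 2.43% higher and 6.46% lower in knockout cells. The part of the receptor-gene reads in these medians was not tested further.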

How the data were processed

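H3K9ac ChIP-seq gave 1 peak list per line and day, and total RNA-seq 3 libraries per line and day. Per the submitters' processing notes the tools were Novoalign and MACS2 for ChIP and TopHat and HOMER for RNA, with build mm9. The control, settings, strand and handling of reads with several positions are not given in the sources used here. Per the file headers and names the lists deposited by the authors hold broad peaks with a fold enrichment (a ratio), a -log10 p-value and a -log10 q-value. The gene table deposited by the authors holds a signal, reads scaled to a common total per library. All of its values are whole reads times 1 factor per library (100% within 0.006). The design allowed for raw counts, but the signal was tested with limma 3.58.1 (trend, robust, R 4.3.3) on log2(value + 1) over 20624 genes above 1 in at least 3 of 12 libraries, with all groups fitted together and p-values adjusted by Benjamini-Hochberg (threshold 0.05). edgeR 4.0.16 (quasi-likelihood, 14884 genes) on recovered reads was an alternative. The fit was tested on simulated data. Peaks were compared by an overlap of 1 base in Python 3.11.15 with pandas 2.3.3. Gene starts came from the gene table, and a peak within 1 kb was placed at the start. Named are the gene-start members with a tested gene (up to 12 a class, predicted genes passed over), gene-start genes passing a test, fixed-list genes, the 5 strongest distal members of each class and runs of members. The members, gene lists and motifs were chosen with earlier results of these data known, and GAANNTTC and CCAAT were added after the members were seen. Each RNA library has a separate donor number in the labels, which do not say whether cultures were separate, so p-values may measure technical spread. Deviations of same-numbered libraries from their group means correlated between the lines at 0.0 to 0.1 on day 10 and at 0.43, -0.11 and 0.58 on day 0. Not every pair was over 0.1, so the numbers were not taken as pairs. H3K9me2 and input samples and the allele table were not used here.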

Additional observations from a re-analysis of the deposited data

Results flagged for a closer look

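The X chromosome lies outside the rule, and its strong day 10 peaks were counted in the same way. Of 183 strong parental peaks on the X, 14 (7.65%) overlapped no knockout peak, with a highest fold of 10.9. Of 141 strong knockout peaks on the X, 0 overlapped no parental peak. There is 1 list per line, and no cause was tested.

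Ttc21b, with a knockout-only peak at its start, had higher RNA in each knockout than in any parental library on day 0 (242.8, 174.5 and 152.5 against 106.1, 100.2 and 152.0 scaled reads) and lower RNA in each on day 10. The difference between the line effects was -1.43 on the log2 scale (SE 0.50, limma adjusted p = 0.547), which did not pass. The day 0 gap rests on 152.5 against 152.0, and 1134 of 20624 genes were higher in the knockout without overlap on that day.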

How the results depend on the processing

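The number of members depended on the thresholds. With a minimum of 3 in column 7 there were 1434 parental-only and 928 knockout-only peaks, with a minimum of 5 there were 50 and 13, with a -log10 q of at least 5 there were 38 and 11, and when other-line peaks counted only at a -log10 q of 2 or more there were 913 and 703. The parental-only class stayed the larger in these settings. The parental-only share at gene starts (9.49%) was 16.8% within 5 kb and 2.0% at a minimum of 5, and the knockout-only share (15.6%) was 7.69% at a minimum of 5. The parental-only share in the day 0 list of the same line (78.8%) was 41.6% when day 0 peaks needed a fold of 4, 37.3% at a day 10 minimum of 3 and 90% at 5, and that in the other line (79.6%) was 49.6%, 30.9% and 94.0%. The knockout-only shares (51.1% and 48.9%) were 28.9% and 26.7% when day 0 peaks needed a fold of 4, and 17.9% and 21.0% at a minimum of 3.

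Between the lines on day 10 limma called 0 genes, 111 with a pseudocount of 0.1 and 4 with the compared groups alone in the fit. The calls from day 0 to day 10 were 911 in parental cells (396 with the compared groups alone) and 1834 in knockout cells (1054 with a pseudocount of 5, 4105 with the compared groups alone, 1046 with edgeR). Leaving out 1 library at a time gave 0 to 1 calls between the lines on each day, 466 to 1374 in parental cells, 199 to 4517 in knockout cells and 0 for the difference of the changes. In these fits the medians of parental-only genes ran from -0.48 to -0.01 and those of knockout-only genes from -0.93 to -0.51, with 0 calls among them between the lines on day 10. Within 5 kb of a start the knockout-only median was -0.32 (11 genes). TMM and RLE scaling moved the median of all genes from -0.26 to -0.13 and -0.19. With replicate number as a replicate block, 0 genes of either class passed between the lines, the medians were -0.27 and -0.81, and the calls of Slc5a11 and Lhx6 over time were lost, as with TMM, RLE and edgeR. The fewest knockout calls (199) came without the third knockout day 10 library and the most (4517) without the third parental day 10 library, and the fewest and most parental calls without the third parental (466) and the first knockout (1374) day 0 library. Of the 6 genes at gene starts or within 50 kb called over time, 5 lost their call in 6 to 11 of 20 alternatives, all with the same sign, and Jph1 in 0. Day 10 libraries held at most 4220140 recovered reads, so low genes such as Dusp23 and Hspa1l rest on few reads.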
